A study of Mus musculus with 56 samples.

Results

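Gene expression in the gastrocnemius, the large calf muscle, was compared between mice that had breathed cigarette smoke for 12 weeks and mice that had breathed air for the same time. Members were taken from the source labels of the samples: 8 arrays from 7 smoke mice and 6 arrays from 6 air mice, 14 of the 56 arrays of the series. All were female C57BL/6 mice with no genetic change named in the labels, and their age is not given there. Smoke mice received 4% mainstream smoke through a nose-only device for 2 hours a day on 5 days a week, and the air mice, the sham group, received air by the same route and schedule. The labels call the air group FA, an abbreviation the sources used here do not define. Arrays titled G8 and g8 were taken as 1 smoke mouse and averaged. Separate animal names in the titles give 13 mice at 12 weeks, out of 55 in 9 groups. Levels below are log2 of the deposited intensity plus 16, differences are smoke minus air on that scale with their SE, and 12351 genes with 1 probe set each were tested. A gene passed where its limma p, adjusted over those genes by the Benjamini-Hochberg method, was under 0.05.

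Cigarette smoke carries polycyclic aromatic hydrocarbons, which bind the aryl hydrocarbon receptor, a cytosolic protein held by the HSP90 chaperone. The bound receptor enters the nucleus, pairs with ARNT and binds short DNA motifs near genes of xenobiotic metabolism. The cytochrome P450 enzyme Cyp1a1 is the best known of these, and the repressor Ahrr closes a feedback loop on the receptor.

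Some arrays at 12 weeks stood apart before any gene was tested. Glycam1, a mucin of lymph node vessels, had an intensity of 8977 in smoke replicate 5 and of 9758 in 1 of the arrays of smoke replicate 7, the mouse G8. The second G8 array read 21.9 and smoke replicate 1 read 306.7, while no air array was above 46. The mean of the 9 lymphocyte markers followed the same order: 9.99 and 10.24 in the high arrays, 6.44 in smoke replicate 1 and 4.79 in the second G8 array, against 5.03 to 5.31 in air. The fits were therefore run with all arrays and without the arrays of Glycam1 intensity above 2000, which leaves 6 smoke and 6 air mice. Between the G8 arrays 1430 genes were higher and 236 lower by more than 1 in the array of high Glycam1, 13.5% of those tested. Air replicate 1 also stood apart, with the highest mean of the collagen, cell cycle, macrophage and interferon lists among the air mice. Muscle markers were at like levels in both groups: skeletal actin Acta1 lay at 13.48 to 13.58 in air and 13.45 to 13.60 in smoke, and creatine kinase Ckm at 13.03 to 13.17 and 12.98 to 13.25. The median intensity per array was between 63.3 and 73.8, and precision is limited by how few arrays there are.

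Cyp1a1, which oxidises aromatic hydrocarbons, was higher in every smoke mouse than in every air mouse, and was the only gene that passed. Air mice lay at 7.06 at the lowest, 7.29 at the median and 7.39 at the highest, and smoke mice at 8.00, 8.48 and 9.66. The groups did not overlap, and the smoke mice spread more widely, with an SD of 0.64 against 0.13. As intensity, the lowest air array read 117, and the smoke arrays read 240 to 793. The difference was 1.47 ± 0.24 (SE), or 2.78-fold on this scale, with a limma adjusted p of 0.001682 (n = 7 smoke and 6 air mice). A two-sided exact permutation test over the 13 mice gave p = 0.00117. Of all genes tested, 0.0081% passed, which is this 1 gene.

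Leaving out the arrays of high Glycam1 kept Cyp1a1 as the single gene past the threshold, at 1.55 ± 0.22 (limma adjusted p = 0.0004387; n = 6 and 6), again 0.0081% of genes. The high arrays did not read higher for Cyp1a1: smoke replicate 5 had 8.40, inside the range of the other smoke mice, and within G8 the array of high Glycam1 read 0.24 below its partner. Leaving out each mouse in turn gave differences of 1.32 to 1.60 with limma adjusted p of 0.000375 to 0.01363. The spread was estimated over all 9 groups. In a limma fit of the 12-week groups alone Cyp1a1 did not pass: the same difference had an adjusted p of 0.5082, and the 1.55 without the arrays of high Glycam1 had 0.4419. Among 48 mice of the other 8 groups the highest Cyp1a1 level was 8.60, and 3 of the 7 smoke mice at 12 weeks lay above it.

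**Figure D1:**
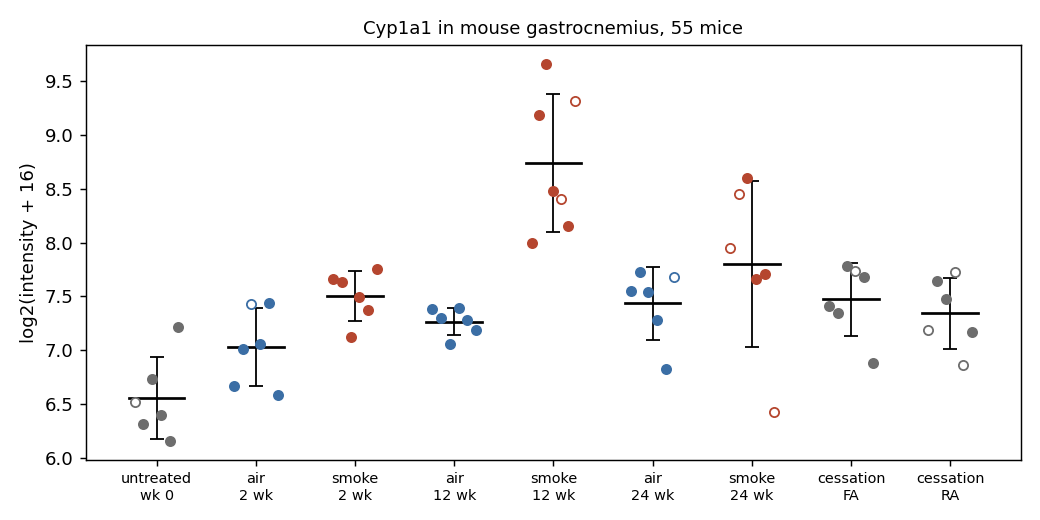
Cyp1a1 level, log2 of intensity plus 16, for each of 55 mice in 9 groups. Points are mice, open where an array had Glycam1 above 2000, and bars are means with SD; all smoke mice at 12 weeks, 8.00 to 9.66, lie above all air mice at 12 weeks, 7.06 to 7.39.

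The sequences below show the 250 bases before the start site of Cyp1a1 and of the feedback repressor Ahrr, the AHR genes for which all smoke mice exceeded all air mice, and of Cyp1b1, the related enzyme with the next largest difference. They are from RefSeq on build GRCm38.p6, 5′ to 3′ on the gene's strand, with the core that the receptor and ARNT bind, GCGTG on either strand (CACGC when read from the other), in capitals.
Cyp1a1, chr9:57697363-57697612, plus strand: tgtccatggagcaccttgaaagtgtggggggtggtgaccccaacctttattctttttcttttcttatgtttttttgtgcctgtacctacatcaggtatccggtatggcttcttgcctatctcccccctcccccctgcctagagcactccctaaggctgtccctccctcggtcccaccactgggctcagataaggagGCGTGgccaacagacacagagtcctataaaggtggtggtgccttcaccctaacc
Cyp1b1, chr17:79715062-79715311, minus strand: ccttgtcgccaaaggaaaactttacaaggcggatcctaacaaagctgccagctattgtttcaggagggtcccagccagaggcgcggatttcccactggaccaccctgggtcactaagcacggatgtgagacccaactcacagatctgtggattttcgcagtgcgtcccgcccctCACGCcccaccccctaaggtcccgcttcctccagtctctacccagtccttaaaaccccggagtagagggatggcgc
Ahrr, chr13:74292332-74292581, minus strand: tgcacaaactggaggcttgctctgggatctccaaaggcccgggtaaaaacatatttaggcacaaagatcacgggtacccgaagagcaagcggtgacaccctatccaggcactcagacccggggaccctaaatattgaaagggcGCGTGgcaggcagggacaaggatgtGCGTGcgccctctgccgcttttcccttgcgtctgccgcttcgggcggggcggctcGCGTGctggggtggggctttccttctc
Cyp1a1 and Cyp1b1 held 1 core each in this window, Ahrr 3, Tiparp and Lpcat2 1 each, and Cyp1a2 and Nqo1 none. Of 32851 RefSeq windows of this length, 28.2% held the core, and 4.1% held the longer TNGCGTG, which contains the core and was found here only in the Ahrr window among these 7. A match is a description of these letters and not a bound site.

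Of the 15 listed AHR targets, 6 were measured above the filter on dim genes (a mean level of 5.71), and Cyp1a1 was the only one past the threshold; of 9 listed genes of the receptor complex 6 were measured and none passed. Cyp1b1, which also oxidises aromatic hydrocarbons and oestrogens, lay at 5.65, 6.15 and 6.49 (lowest, median, highest) in air and at 6.32, 6.92 and 10.26 in smoke. Of the smoke mice 6 of 7 lay above every air mouse, which 0.3% of genes reached. The groups overlapped in 1 smoke mouse, and the difference of 1.41 ± 0.73 did not pass (limma adjusted p = 0.9989). Glycam1 moved with it, since the G8 array of high Glycam1 read 4.44 above its partner for Cyp1b1, and the part of lymph node RNA in the difference was not tested. Without the high arrays the difference was 0.59 ± 0.26 (limma adjusted p = 0.6161), with 4 of 6 smoke mice above every air mouse, as in 2.09% of genes.

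Ahrr lay near the bottom of the scale, below the filter, at 4.19, 4.27 and 4.33 in air and 4.47, 4.81 and 5.70 in smoke. All 7 smoke mice were above all air mice, and 0.033% of 18193 unfiltered genes showed this. The highest were smoke replicates 5 (5.70), 1 (5.11) and 7 (5.05), the mice with an array of raised Glycam1, and the part of lymph node RNA was not tested. The difference was 0.62 ± 0.19, with an adjusted p of 0.9979 in the limma fit without a filter, and 0.41 ± 0.13 (adjusted p = 0.6114) without the high arrays, where all 6 smoke mice still lay above air, as in 0.0989% of unfiltered genes. At 2 and 24 weeks the Ahrr differences were -0.31 and 0.31 with all arrays, and -0.20 and -0.14 without the high ones. Air mice at those times reached 5.11 and 4.76.

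Other AHR genes overlapped between the groups and did not pass. The receptor Ahr itself differed by 0.20 ± 0.19 with all arrays and by -0.07 ± 0.12 without the high ones, and its G8 arrays read 9.71 and 8.32. The partner Arnt differed by 0.04 ± 0.08 in both fits, its relative Arnt2 by -0.10 and by -0.23 without the high arrays, the chaperone Hsp90aa1 by 0.01 ± 0.10 (-0.07 without), and the coactivators Ncoa1 and Ncoa2 by -0.03 ± 0.06 and 0.02 ± 0.10 (-0.04 and -0.05 without). Nqo1, a quinone reductase that is also an NRF2 target, differed by -0.12 ± 0.16, and by 0.03 ± 0.08 without the high arrays. Tiparp, an ADP-ribosyltransferase that represses the receptor, differed by -0.06 ± 0.22 on a probe set whose suffix marks shared sequence (-0.02 without). The tryptophan-degrading enzyme Ido1 and the lipid enzyme Lpcat2 differed by 0.54 ± 0.66 and 0.28 ± 0.38 with all arrays, and by -0.21 ± 0.27 and -0.12 ± 0.18 without the high ones, so their direction turned. Cyp1a2 and Aldh3a1 lay below the filter, with differences of -0.08 ± 0.12 and 0.37 ± 0.20.

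**Figure D2:**
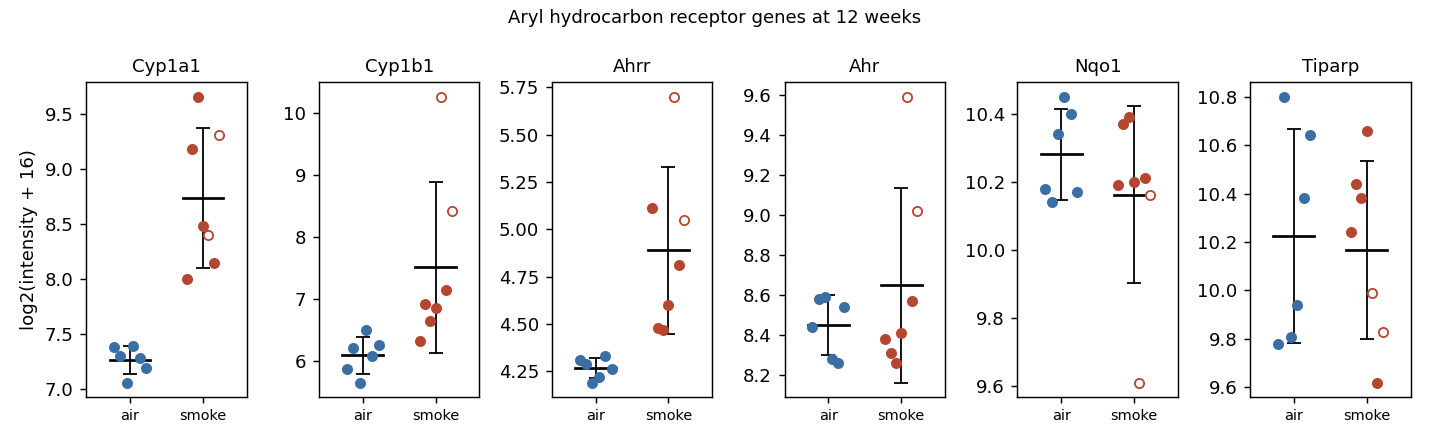
Levels of 6 AHR genes in the 6 air and 7 smoke mice at 12 weeks, log2 of intensity plus 16, each panel with its own vertical range. Points are mice, open where an array had Glycam1 above 2000, with mean and SD; Cyp1a1 and Ahrr show no overlap, and the open points are the highest for Cyp1b1, 10.26, and Ahr, 9.59.

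A test of all 45037 probe sets, in place of the brightest probe set of each gene, called a probe set of Asph next to that of Cyp1a1 (2 probe sets, 0.00444%). Asph encodes aspartate beta-hydroxylase and, in muscle, the short forms junctin and junctate of the calcium stores. This probe set, 1436455_at, is not the gene's brightest, and it and the Cystm1 probe set below were singled out after their values were seen. It lay at 6.22, 6.58 and 6.89 in air and at 7.10, 8.24 and 8.91 in smoke. The groups did not overlap, and the lowest smoke mouse was replicate 5, the mouse of high Glycam1. The difference was 1.59 ± 0.24 (limma p adjusted over probe sets = 0.0009705; exact permutation p = 0.001166). Without the high arrays it was 1.79 ± 0.18 (adjusted p = 2.248e-07), the lowest p of the 3 probe sets called there (0.00666%). It also passed in the limma fit of the 12-week groups alone without the high arrays (adjusted p = 0.001925), but not in that fit with all arrays (adjusted p = 0.2992). Air mice at 12 weeks had the lowest mean of the 9 groups, 6.57, against 7.30 in untreated mice, 7.17 in air at 2 weeks and 6.81 in air at 24 weeks. Among 48 mice of the other groups the highest level was 8.7, and 1 of the 7 smoke mice at 12 weeks lay above it.

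The other 5 Asph probe sets did not pass, and their groups overlapped. The brightest, 1425274_at, differed by -0.11 ± 0.10 with all arrays and by 0.00 without the high ones, and the rest lay between -0.06 and 0.10. The sources used here do not say which transcript form 1436455_at reads.

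Cystm1 encodes a small cysteine-rich membrane protein, and its probe set 1441883_at was called without the high arrays but not in the fit of all arrays. It lay at 7.69, 7.91 and 8.15 in air and 8.10, 8.68 and 8.83 in smoke, where 6 of 7 mice exceeded every air mouse, as at least 6 did in 0.3% of genes. The exception was again smoke replicate 5. The difference was 0.68 ± 0.16 (adjusted p = 0.9997) with all arrays and 0.76 ± 0.10 (adjusted p = 3.13e-05) without the high ones. The gene's brighter probe set, 1427878_at, differed by -0.10 ± 0.10. With all arrays kept 1441883_at passed with array weights (0.75, limma adjusted p = 7.131e-05) and with the lymphocyte marker mean as a covariate (0.77, adjusted p = 0.0233). In the fit of the 12-week groups alone without the high arrays the p of 1441883_at was 0.1969 after adjustment.

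**Figure D3:**
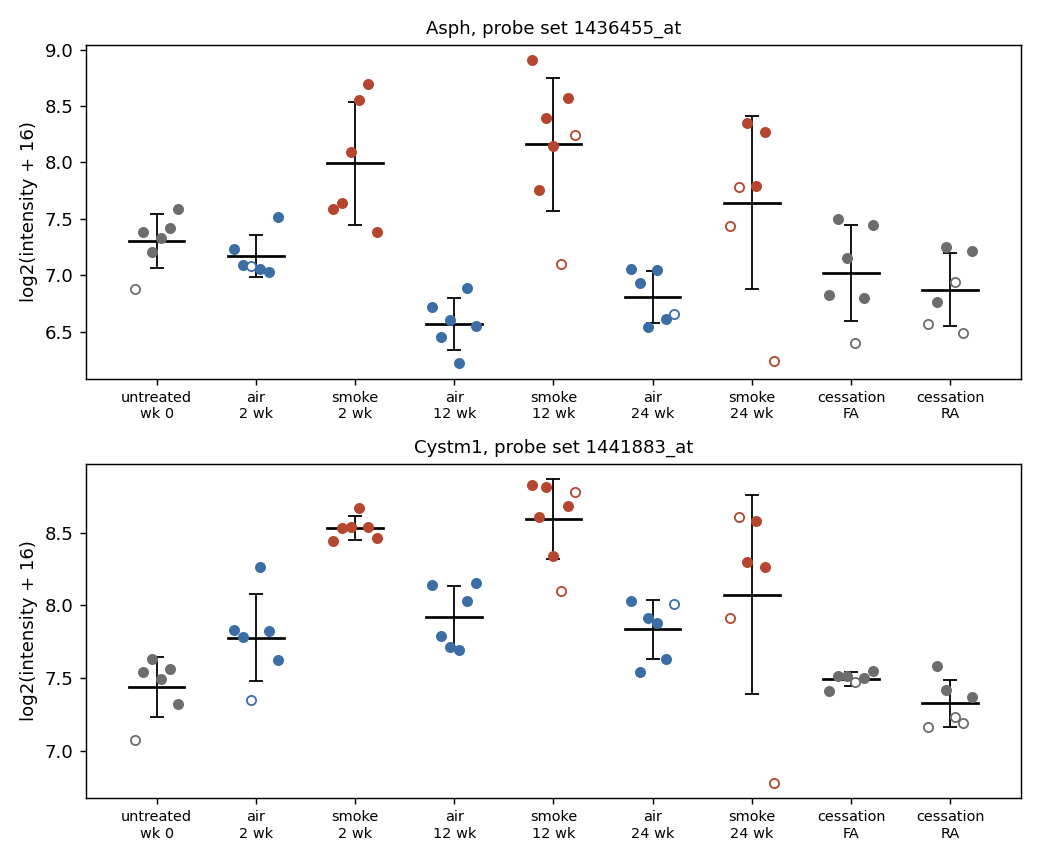
Levels of the Asph probe set 1436455_at and the Cystm1 probe set 1441883_at, log2 of intensity plus 16, for 55 mice in 9 groups. Points are mice, open where an array had Glycam1 above 2000, with mean and SD; mean Asph levels are 8.16 in smoke and 6.57 in air at 12 weeks, and 7.02 and 6.87 in the cessation arms.

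Levels at the other times were compared each against its own air mice. Cyp1a1 differed by 0.47 at 2 weeks, 1.47 at 12 weeks and 0.37 at 24 weeks, with exact permutation p of 0.039, 0.00527 and 0.345 after adjustment over 9 tests of 3 probe sets at 3 times. Without the high arrays the differences were 0.55, 1.55 and 0.60, with exact permutation p of 0.0201, 0.00486 and 0.0893 after the same adjustment. The gap between 12 and 2 weeks, 1.00 ± 0.34, did not pass over all genes (limma adjusted p = 0.9424), and neither did that between 24 and 12 weeks, -1.11 (limma adjusted p = 0.885). The Asph probe set differed by 0.82, 1.59 and 0.84 at 2, 12 and 24 weeks, with adjusted exact p of 0.00779, 0.00527 and 0.039. The Cystm1 probe set differed by 0.75, 0.68 and 0.24, with adjusted exact p of 0.00648, 0.00655 and 0.444. The Asph and Cystm1 probe sets were chosen by their 12-week difference, so their exact p at 12 weeks are no separate test of it. Those p also entered the adjustment of the other times, which lowers the adjusted values there. Without the high arrays, 3 smoke mice remained at 24 weeks and all of them exceeded every air mouse for both probe sets (exact p = 0.0201 after adjustment for each).

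In mice that had 12 weeks of smoke and then a cessation period of 12 weeks, Cyp1a1 had means of 7.47 ± 0.34 (SD, n = 6) in the arm labelled FA and 7.35 ± 0.33 (n = 6) in the arm labelled RA, which the labels do not define either, against 8.74 ± 0.64 (n = 7) right after 12 weeks of smoke. The Asph probe set had 7.02 ± 0.42 and 6.87 ± 0.32 against 8.16 ± 0.59, and the Cystm1 probe set 7.49 ± 0.05 and 7.33 ± 0.16 against 8.59 ± 0.28. The highest cessation mouse for Cystm1, at 7.58, lay below the lowest smoke mouse at 12 weeks, at 8.10. Air mice at 24 weeks had means of 7.43 ± 0.33 for Cyp1a1, 6.81 ± 0.23 for Asph and 7.83 ± 0.20 for Cystm1. Their Cystm1 levels ran from 7.54 to 8.03, so both cessation means lay below this range. These levels are given as a description. The Asph and Cystm1 probe sets were chosen by their 12-week difference, and the same smoke levels are the reference here. The arms also differ from the 12-week mice by 12 more weeks.

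With 1 probe set per gene, no gene other than Cyp1a1 passed at 12 weeks. With all arrays 230 genes (1.86%) had an unadjusted p under 0.05 (83 higher, 0.672%, and 147 lower, 1.19%), and 47.1% of genes lay above 0. There were 930 (7.53%) when the high arrays were left out, of which 289 were higher (2.34%) and 641 lower (5.19%), with 40.7% of genes above 0 and a median difference of -0.02. The count of genes past the adjusted threshold without the high arrays moved with single mice. It was 4 without air replicate 2 (Cyp1a1, Rai1, B230311B06Rik and 9230114K14Rik), 4 without smoke replicate 1 (Cyp1a1, Rai1, Phf23 and Hmg20b) and 2 without air replicate 5 (Cyp1a1 and 1500015A07Rik). Rai1, a nuclear regulator named for its induction by retinoic acid, differed by -0.25 ± 0.05 in the fit with all of these mice (limma adjusted p = 0.1324), and by -0.17 with all arrays.

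All 7 smoke mice lay above all air mice for 2 genes (0.0162%), Cyp1a1 and Gnpda1, a deaminase of glucosamine 6-phosphate, which lay at 7.57 to 7.79 in air and 7.80 to 8.10 in smoke. They lay below all air mice for 10 genes (0.081%). Among these were Inhba, the activin A subunit, at 6.21 to 6.50 in air and 5.76 to 6.15 in smoke, and Adcy2, an adenylyl cyclase, at 9.81 to 9.99 and 9.08 to 9.77. None of these genes other than Cyp1a1 passed (limma adjusted p = 0.9989 for each of the 3 others named here).

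In the fit without the high arrays 11 genes had every smoke mouse above every air mouse (0.0891%) and 23 had every smoke mouse below (0.186%). The values of those with an unadjusted p under 0.01 follow as a description, since that is how they were chosen. Atcay, which encodes the neuronal protein caytaxin, lay at 6.45 to 6.98 in air and 7.08 to 7.20 in smoke, a difference of 0.42 ± 0.10 (0.31 with all arrays). The kinase Map2k3, which activates p38, differed by 0.20 ± 0.06 (0.06 with all arrays). The others higher in smoke, Gnpda1, Rtn2, Ttc33 and Pak1ip1, differed by 0.11 to 0.19; with all arrays these were 0.23, 0.04, 0.03 and 0.08 in that order.

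Apart from Cyp1a1, the largest differences in this set lay below 0. Stard4, a carrier of cholesterol between membranes, lay at 7.51 to 8.34 in air and 7.11 to 7.49 in smoke, a difference of -0.50 ± 0.12 (-0.32 with all arrays). Nab2, a corepressor of EGR factors, differed by -0.48 ± 0.13 (-0.29 with all arrays), and the orphan receptor Mrgprf by -0.44 ± 0.10 (-0.39). Notch4, a Notch receptor of endothelial cells, lay at 8.01 to 8.49 in air and 7.70 to 7.81 in smoke, a difference of -0.40 ± 0.10 (-0.27 with all arrays). The matrix protein Thbs3, a thrombospondin, and Inhba each differed by -0.34 ± 0.09 (-0.33 and -0.35 with all arrays). Adcy2, the mitochondrial ribosomal protein Mrpl39, 0610040J01Rik and the ATP synthase assembly factor Atpaf1 differed by -0.24 to -0.17, and with all arrays by -0.36, -0.05, -0.25 and -0.15 in that order. Of the 16 genes of this set other than Cyp1a1 none passed; their limma adjusted p ran from 0.2314 to 0.5418.

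With all arrays the genes of lowest p after Cyp1a1 had small differences as well. Higher in smoke were 4632404H12Rik (0.35 ± 0.11), Ovca2, a serine hydrolase (0.28 ± 0.09), Gnpda1 (0.23 ± 0.07) and Tbc1d8 (0.16 ± 0.05). Lower were Arsi, a sulfatase (-0.44 ± 0.14), Agap1, which regulates Arf proteins (-0.43 ± 0.14), Mrgprf (-0.39 ± 0.11), the cAMP-responsive factor Crem (-0.37 ± 0.11) and Inhba (-0.35 ± 0.11). Each had a limma adjusted p of 0.9989.

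Genes that mark muscle wasting, clock phase and fuel use overlapped between the groups, and none passed. The ubiquitin ligases of atrophy, Trim63 and Fbxo32, differed by 0.15 ± 0.09 and 0.25 ± 0.19 without the high arrays (limma adjusted p = 0.7237 and 0.8096), and by 0.03 ± 0.14 and 0.06 ± 0.21 with all arrays. Trim63 lay at 11.08 to 11.39 in air and 11.19 to 11.78 in smoke, or from 10.68 with all arrays. Of the clock genes, the repressor Nr1d1 differed by -0.34 ± 0.12 (limma adjusted p = 0.5418), and by -0.39 ± 0.15 with all arrays. Per1 and Arntl differed by -0.02 ± 0.20 and -0.02 ± 0.14 (-0.10 and -0.09 with all arrays). Dbp, on a probe set of shared sequence, differed by -0.15 ± 0.12 (-0.10 with all arrays).

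Pdk4, the kinase that turns muscle from glucose to fat, differed by 0.26 ± 0.14 and the mitochondrial carrier Ucp3 by 0.34 ± 0.26 (0.28 and 0.31 with all arrays). The angiogenic factor Vegfa differed by -0.08 ± 0.09 and the cell cycle inhibitor Cdkn1a by -0.13 ± 0.17 (-0.09 and -0.14 with all arrays). The coactivator Ppargc1a and the metallothionein Mt1, both on probe sets of shared sequence, differed by -0.06 ± 0.09 and -0.16 ± 0.19, and Mt2 by 0.05 ± 0.28; with all arrays these were -0.16, 0.09 and 0.10, so the direction of Mt1 turned. The stress enzyme Hmox1 differed by 0.19 ± 0.29 with all arrays and -0.18 ± 0.20 without the high ones.

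Gene lists were read by counts and medians. Beside them stand 40.7% of all genes above 0 with a median of -0.02 without the high arrays, and 47.1% with a median of -0.01 with all arrays. Only Cyp1a1 passed in any list. Counts and members' values in the list results are without the high arrays unless all arrays are named. The collagen and matrix list had 1 of 19 measured genes above 0 and a median of -0.27, and 1 of 19 and -0.15 with all arrays. Its members of lowest p were the basement membrane chain Col4a2 (-0.28 ± 0.09), the fibril regulator Col5a1 (-0.35 ± 0.12) and the microfibril chains Col6a2 (-0.41 ± 0.15) and Col6a1 (-0.28 ± 0.11); with all arrays these were -0.09, -0.31, -0.23 and -0.15. Macrophage markers had 0 of 13 above 0 and a median of -0.28, with the phagocyte gene Cd68 at -0.46 ± 0.33 and the mannose receptor Mrc1 at -0.28 ± 0.19 (-0.15 and -0.04 with all arrays). Cell cycle genes had 1 of 13 above 0 and a median of -0.32, with the mitotic genes Birc5 and Ccna2 at -0.70 ± 0.41 and -0.47 ± 0.27 (-0.14 and -0.14 with all arrays). Interferon-responsive genes had 2 of 22 above 0 and a median of -0.17. With all arrays the medians of these last 3 lists lay on the other side of 0: macrophage markers had 7 of 13 above 0 and a median of 0.03, cell cycle genes 7 of 13 and 0.01, and interferon-responsive genes 11 of 22 and 0.01.

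The medians without the high arrays also moved with 1 air mouse. Air replicate 1 had a collagen list mean of 11.24, against 10.33 to 10.76 in the other air mice and 10.31 to 10.57 in smoke without the high arrays. Its cell cycle mean was 8.35 (other air mice 6.87 to 7.24, smoke 6.86 to 7.35), its macrophage mean 9.83 (8.45 to 8.95, smoke 8.12 to 8.96) and its interferon mean 8.03 (7.23 to 7.53, smoke 7.14 to 7.66), the smoke ranges again without the high arrays. With all arrays the highest smoke mouse lay above air replicate 1 for cell cycle (8.51), macrophage (9.98) and interferon (8.36) genes, and below it for collagen (10.65). Without this mouse and the high arrays the medians were -0.14 for collagen (4 of 19 above 0), -0.13 for macrophage markers (2 of 13), -0.04 for cell cycle (5 of 13) and -0.04 for interferon (9 of 22). Over all genes 41.8% then lay above 0. In bulk RNA, fewer cells of a type and less RNA per cell cannot be told apart.

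All 20 endothelial markers lay below 0 without the high arrays, with a median of -0.10, and 16 of 20 without air replicate 1 too, with a median of -0.09; with all arrays 16 of 20 lay at or below 0, with a median of -0.05. Those of lowest p were Mmrn2, an endothelial matrix protein (-0.26 ± 0.07), the angiopoietin receptor Tek (-0.16 ± 0.06) and Ecscr (-0.15 ± 0.07), all with limma adjusted p of 0.3811 or more (-0.10, -0.13 and -0.04 with all arrays). The angiogenesis and hypoxia list had 4 of 23 above 0 and a median of -0.09 (9 of 23 and -0.09 with all arrays), with the Tek ligand Angpt1 at -0.22 ± 0.08 and the lymphatic receptor Flt4 at -0.27 ± 0.10 (-0.28 and -0.10 with all arrays). Summed as a mean per mouse, the endothelial markers reached 9.25 in air and 9.14 in smoke (9.26 with all arrays), and the groups overlapped.

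**Figure D4:**
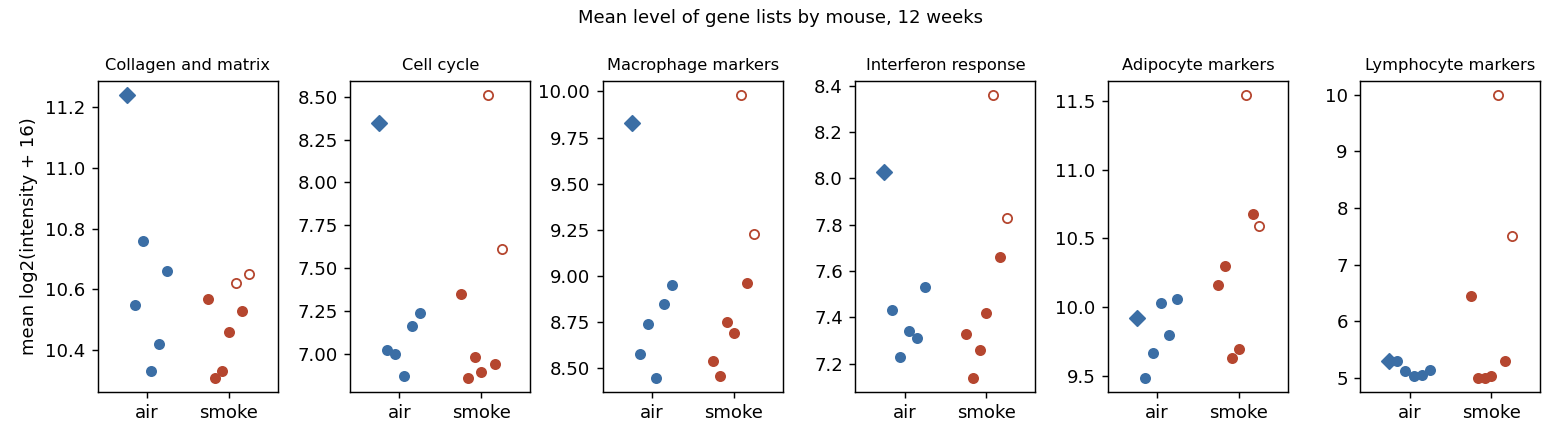
Mean level over the measured genes of 6 lists in each mouse at 12 weeks, log2 of intensity plus 16, each panel with its own vertical range. Open points are mice with an array of Glycam1 above 2000 and the diamond is air replicate 1, which is the highest air mouse for collagen (11.24), cell cycle (8.35), macrophage (9.83) and interferon (8.03) genes.

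Fat and lymphocyte markers had medians above 0 that were largest with the high arrays. All 11 adipocyte markers lay above 0, with a median of 0.58 with all arrays and 0.17 without the high ones. The hormone leptin, Lep, lay at 5.77 to 7.40 in air and 6.15 to 8.62 in smoke without the high arrays, a difference of 0.92 ± 0.55, and Adipoq differed by 0.32 ± 0.36 (1.34 and 0.68 with all arrays). The adipocyte mean per mouse was 9.49 to 10.06 in air and 9.63 to 10.68 in the remaining smoke mice, of which 3 lay above every air mouse. Lymphocyte markers had a median of 1.17 with all arrays and 0.06 without the high ones, and the lymph node list (which includes Glycam1) 1.01 and 0.16. With a limit of 200 for Glycam1, which takes out smoke replicate 1 too, these 2 medians were -0.13 and -0.04.

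Lists of muscle function had medians near 0. Of 17 fast fibre genes 15 lay above 0 without the high arrays, with a median of 0.03, and 11 with all arrays, with a median of 0.02. Those of lowest p were Myoz1, a Z-disc protein (0.07 ± 0.02), the calcium store protein Casq1 (0.08 ± 0.04) and the calcium channel Cacna1s (0.12 ± 0.06); with all arrays these were 0.03, 0.05 and -0.02, so the direction of Cacna1s turned. The slow fibre list had 8 of 16 above 0 and a median of 0.00 (7 of 16 and -0.03 with all arrays), and the myosins Myh7 and Myh4 differed by 0.09 ± 0.21 and 0.04 ± 0.03 (0.07 and 0.03). Proteasome subunits had 22 of 31 above 0 and a median of 0.03, but 12 of 31 and -0.01 with all arrays, and 16 of 31 and 0.00 with the Glycam1 limit of 200. Oxidative phosphorylation had 16 of 50 and -0.02 (8 of 50 and -0.02 with all arrays). Glucocorticoid-responsive genes had 16 of 20 above 0 and a median of 0.06 (17 of 20 and 0.08 with all arrays, 12 of 20 and 0.07 without the high arrays and air replicate 1). Their member of lowest p was glutamine synthetase, Glul (0.13 ± 0.05, and 0.15 with all arrays), for which 5 of 6 smoke mice exceeded every air mouse. At least 4 of 6 did so in 2.09% of genes. NRF2 targets had 15 of 23 above 0 and a median of 0.02 (14 of 23 and 0.01 with all arrays), with the autophagy receptor Sqstm1 at 0.12 ± 0.05 (0.03 with all arrays). The myogenic list had 7 of 14 above 0 and a median of 0.00 (3 of 14 and -0.12 with all arrays). Its members ran from -0.53 to 0.29, and the lowest was the embryonic myosin Myh3, a gene of regenerating fibres (-0.53 ± 0.18, and -0.52 with all arrays).

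**Figure D5:**
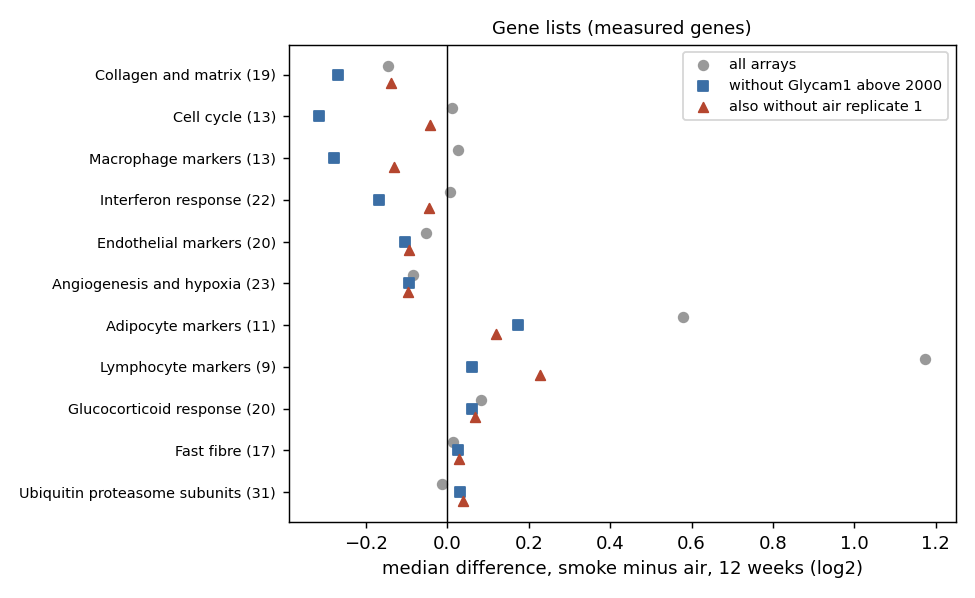
Median difference, smoke minus air at 12 weeks on the log2 scale, of 11 gene lists with the number of measured genes in brackets. Grey circles use all arrays, blue squares leave out arrays of Glycam1 above 2000 and red triangles also air replicate 1; collagen moves from -0.27 to -0.14 and cell cycle from -0.32 to -0.04 between the last 2.

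The size of the smoke difference was also compared between times over all genes. Between 12 and 2 weeks 0 of 12351 genes passed in the limma fit (251 had an unadjusted p under 0.05, 2.03%), with and without the high arrays (309, 2.5%, without). Between 24 and 12 weeks 0 passed with all arrays (557 at an unadjusted p under 0.05, 4.51%) and 2 passed without the high ones (0.0162%; 1756 at an unadjusted p under 0.05, 14.2%), Dnaja1 and Zfp449, whose values are given in the closing section.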

How the data were processed

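Muscle RNA was amplified and biotin-labelled with a NuGEN kit, per the labels' protocols. The authors' deposited values are linear intensity per probe set (45037 probe sets, 56 arrays, some values below 0); the summary and normalization methods are not given in the sources used here, and arrays have no read depth. Values below -15 (5 of 2522072) were set to -15, and log2(intensity + 16) was taken, which understates changes of dim genes. Of the probe sets, 34945 had 1 gene symbol, 932 several and 9160 none. The probe set of highest mean stood for its gene, and a minimum at the level that 40% of the 45037 probe sets fall under (a mean of 5.71) kept 12351 of 18193 genes.

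All 9 groups (55 mice) entered 1 limma fit (R 4.3.3, limma 3.58.1; lmFit and eBayes, 46 residual degrees of freedom) with Benjamini-Hochberg adjustment. The fit was also run on simulated data with independent noise for each gene and the same spread in all groups. That run does not show how the fit holds on arrays that share lymph node RNA. Single values were also tested by exact two-sided permutation over mice. The limma p-values set a group difference against the spread between mice within groups, estimated over all 9 groups. The 38 gene lists and the members were chosen with earlier results of these data known. Named were the AHR genes, genes past the threshold, the 10 of largest difference each way without overlap at an unadjusted p under 0.01, the 5 of lowest p each way, up to 4 per list by p, and a set of muscle and stress genes; Rai1 and others called in an alternative, and the Asph and Cystm1 probe sets, were added after their values were seen. Alternatives changed the filter, pseudocount, normalization, weights, covariates, arrays and probe sets. Figures were drawn with matplotlib 3.10.9.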

Additional observations from a re-analysis of the deposited data

Results flagged for a closer look

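Samples far from the rest of their group were looked for in 170 groups of values (genes and list means), and 19 were found; chance alone flags about 1 in 20 groups. Air replicate 1 was far above the other air mice for Birc5 (8.40, next 6.27), Ccna2 (8.18, next 6.71), Cd68 (9.76, next 8.42), Col5a1 (9.89, next 9.26) and Mt2 (10.52, next 9.78). The same mouse had the highest list means for cell cycle (8.35), macrophage (9.83) and interferon (8.03) genes.

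Smoke replicate 5, the mouse with a Glycam1 intensity of 8977, was far above the other smoke mice for Ido1 (9.69), Hmox1 (8.77), Stard4 (8.12) and B230311B06Rik (7.07), and far below them for Nqo1 (9.61), Map2k3 (10.26) and Sqstm1 (11.50). Other air mice stood apart for Mrpl39 (11.69, replicate 6), Myh7 (11.95, replicate 5), Casq1 (12.73, replicate 2) and 9230114K14Rik (7.95, replicate 2).

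The smoke effect differed between 24 and 12 weeks, by the interaction test without the arrays of high Glycam1, for 2 genes. For Dnaja1, a chaperone read by a probe set of shared sequence, the signed difference at 24 weeks was 0.57 ± 0.10 above that at 12 weeks (limma adjusted p = 0.01797). For Zfp449, a zinc finger gene, it was 0.48 ± 0.09 above (limma adjusted p = 0.03092). These gaps span a change of direction without the high arrays. Both genes were lower in smoke on average at 12 weeks, by less than the gap, and so higher in smoke at 24 weeks. At 12 weeks smoke mice without a high array lay at 10.14 to 10.37 for Dnaja1, against 10.30 to 10.65 in air. Their Zfp449 levels were 8.36 to 8.59, against 8.56 to 8.66 in air. With all arrays the gaps were 0.38 and 0.17 (limma adjusted p = 0.885 for each), and only 3 smoke mice at 24 weeks enter the fit without those arrays.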

How the results depend on the processing

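Against 1 gene past the threshold with all arrays, the count was 2 with array weights, 2 over every probe set and over those above the filter, 3 without arrays of Glycam1 above 200 and 3 over every probe set without those above 2000. It was 0 in limma fits of the 12-week groups alone (492 genes at an unadjusted p under 0.05), alone without the high arrays (849) and with the animal number of the titles as a replicate block (626). Cyp1a1 kept its direction in these fits, at 1.47, 1.55 and, with the replicate block, 1.19 (limma adjusted p = 0.7704); the numbers name animals and do not pair them. Over the 20 alternatives for Cyp1a1 that leave out no single mouse the difference ran from 1.19 to 1.71, and 17 kept the call. Without the high arrays the count of 1 became 3 with array weights, 3 over every probe set and 0 in the 12-week groups alone, and 1 to 4 when each mouse was left out. The comparison of 24 with 12 weeks went from 0 to 2 genes without the high arrays. The limit of 200, the tests of every probe set without those arrays or above the filter, and leaving out mice in the fit without those arrays were chosen after seeing the data. The causes of these moves were not tested.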
